A study of Mus musculus with 11 samples.

Results

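Rbm3 and Cirbp, the mouse genes of the 2 cold-inducible glycine-rich RNA-binding proteins, were described across control cells and cells treated with siRNAs against the cap methyltransferase CMTR1. They were found by symbol and are 2 of the 54838 genes in the count tables. The pair was selected on its read counts per library in these siRNA groups, so the levels and fold changes of both genes are given as a description, without p-values.

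The cells were E14, a line of mouse embryonic stem cells (ESCs), grown without a change of temperature at 37 °C. They were transfected for 36 h with a control scramble siRNA (3 libraries), with CMTR1 siRNA 1 (4 libraries) or with CMTR1 siRNA 2 (4 libraries). No group carries a transgene or a deletion, and an siRNA is meant to lower its target without removing the gene. Any loss of CMTR1 in these groups of 1 line is thus partial and transient, and the counts of Cmtr1 are given below. Total RNA was depleted of ribosomal RNA, made into directional libraries and sequenced. The study's methods speak of biological replicates for sequencing, but the labels do not tie a library to a culture, so the errors below measure the spread between these libraries.

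Rbm3 and Cirbp belong to the large family of RNA-binding proteins with 1 RNA recognition motif at the amino end and a glycine-rich tail with Arg-Gly-Gly repeats. Mild hypothermia raises both, and they are known for stabilising or promoting the translation of bound mRNAs, for shifting the choice of polyadenylation sites, and, in the case of Cirbp, for sustaining the amplitude of the circadian clock. CMTR1 methylates the ribose of the nucleotide next to the mRNA cap.

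Rbm3 (ENSMUSG00000031167) lies on the minus strand of chromosome X of GRCm38, from 8138975 to 8145880, and is annotated with 11 transcripts, of which 6 are protein-coding, 2 are targets of nonsense-mediated decay and 2 retain an intron. Cirbp (ENSMUSG00000045193) lies on the plus strand of chromosome 10, from 80165985 to 80172786, and has 7 transcripts, of which 2 are protein-coding, 1 is a target of nonsense-mediated decay and 4 retain an intron. All of these exons together cover 4698 nt for Rbm3 and 2604 nt for Cirbp. The deposited counts may rest on another annotation, since not all counted genes are in this one. They are given per gene, so coding and intron-retaining forms cannot be told apart in them. The coding sequences give an Rbm3 protein of 153 or 154 residues and a Cirbp protein of 172 residues (transcript Cirbp-202). The 154-residue Rbm3 protein and Cirbp were identical at 110 of 150 aligned positions (73.3%). The first 85 residues, which hold the RNA recognition motif, were identical at 65 positions (76.5%) and the tail at 45 of 65 (69.2%). Glycine made up 20.3% of the residues of Cirbp, with 3 Arg-Gly-Gly triplets, and 20.1% to 20.3% of Rbm3, with 2 triplets.

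The proximal promoter of Cirbp is shown because it holds the element through which mild cold is known to raise the gene. The stretch below is chr10:80167589-80167768 of GRCm38.p6, plus strand, from the promoter table of RefSeq, and ends 70 bases before one of the 2 start sites that the table gives for Cirbp. This start lies inside the gene body of the annotation used here for exons, which has transcripts that begin further upstream. Capitals mark the mild-cold-responsive element TCCCCGCC, which the transcription factor Sp1 is known to bind, and the CCAAT boxes, of which the downstream one reads ATTGG and so lies on the other strand.
Cirbp promoter: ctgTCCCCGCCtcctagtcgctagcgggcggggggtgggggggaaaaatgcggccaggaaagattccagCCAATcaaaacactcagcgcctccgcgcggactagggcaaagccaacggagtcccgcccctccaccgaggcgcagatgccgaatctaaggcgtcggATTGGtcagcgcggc
Searched on both strands, the element is found in 1768 of the 32851 promoter windows of 300 bases in that table (5.38%), CCAAT in 37.41% and the GC box GGGCGG, with 3 matches in this Cirbp window, in 35.66%. The heat shock element cores GAANNTTC (7.86% of all windows) and TTCNNGAA (8.52%) had no match in either window of Cirbp. These matches describe letters and not binding.

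The libraries held 6738478 to 8382318 reads counted in genes, no pair of libraries was identical, and their log2 CPM (counts per 1000000 counted reads) correlated pairwise at r = 0.985 to 0.991 across genes. Cmtr1 (ENSMUSG00000024019, chromosome 17), the target of both siRNAs, was counted at 21.3, 21.7 and 17.9 CPM in the control libraries, 21.1, 21.3, 16.24 and 18.04 CPM with siRNA 1, and 15.6, 16.8, 16.5 and 19.5 CPM with siRNA 2. The groups overlapped, and its log2 fold change did not pass the test with siRNA 1 (−0.09, SE 0.11, FDR 0.743) or with siRNA 2 (−0.25, SE 0.11, FDR 0.144; edgeR quasi-likelihood test, Benjamini-Hochberg). Of the 9720 exon bases of Cmtr1, 36.3% are shared with the overlapping genes Gm28043 and Gm28052 of the same strand and 63.7% are not. The part of this overlap in the Cmtr1 count was not tested. These counts alone do not show a knockdown of the target transcript. Of 8 ESC markers, the summed level ran from 1916 to 2019 CPM in control, 1644 to 1810 with siRNA 1 and 1731 to 1808 with siRNA 2. The 6 fibroblast markers summed to 23.3 to 27.8, 24.7 to 28.5 and 34.2 to 39.0 CPM, and the 5 markers of 2-cell-like cells to 13.6 to 15.6, 11.4 to 16.5 and 21.7 to 24.3 CPM. The neural, primitive endoderm and mesoderm sums overlapped between all groups, and no marker was at 0 in all libraries. The ESC sum thus lay below control with both siRNAs, which overlapped each other, and the fibroblast and 2-cell-like sums lay above control with siRNA 2 and overlapped it with siRNA 1. Within the ESC sum the markers differed in log2 fold change with siRNA 1 and siRNA 2. Nanog was at −0.57 and −0.54, Esrrb at −0.34 and −0.55, Zfp42 at −0.32 and −0.31 and Dppa5a at −0.25 and −0.13. Pou5f1 was at −0.16 and −0.03, Tdgf1 at −0.15 and −0.01, Utf1 at −0.07 and −0.12 and Sox2 at −0.04 and −0.12. The part of these cell types in the values of Rbm3 was not tested. In bulk RNA, fewer cells that express a gene and less of its RNA per cell cannot be told apart.

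Rbm3 was lower in every CMTR1 siRNA library than in every control library, by 14.6% with siRNA 1 and by 29.2% with siRNA 2. Rbm3 was counted at 247.1, 236.6 and 229.2 CPM in the control libraries (1703 to 1946 reads). With siRNA 1 it was at 200.9, 200.5, 195.3 and 214.8 CPM, and with siRNA 2 at 163.1, 165.7, 165.4 and 178.9 CPM (1148 to 1449 reads). The 3 groups did not overlap, and the order of the groups was control, siRNA 1, siRNA 2. The means were 237.6 ± 8.98 CPM (SD, n = 3), 202.9 ± 8.32 CPM (SD, n = 4) and 168.3 ± 7.19 CPM (SD, n = 4). The log2 fold change against control was −0.23 (SE 0.05, 95% interval −0.32 to −0.13) with siRNA 1 and −0.50 (SE 0.05, −0.59 to −0.40) with siRNA 2. The libraries of siRNA 2 stood at −0.27 from those of siRNA 1 on the same scale (SE 0.05, −0.36 to −0.18). Relative to the median of all 16073 tested genes, which lay at 0.02 with siRNA 1 and 0.03 with siRNA 2, both values of Rbm3 move by less than their SE.

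These values stand against a background in which 4.67% of tested genes were called with siRNA 1 at an FDR of at most 0.05 and 9.72% with siRNA 2, and 1.97% and 3.55% were called lower. Between siRNA 2 and siRNA 1, 7.44% of genes were called. All siRNA 1 libraries lay below all control libraries for 6.23% of genes, all siRNA 2 libraries below all control libraries for 6.99%, and all siRNA 2 libraries below all siRNA 1 libraries for 5.21%. The full order seen for Rbm3, with no overlap between any of the groups, was held by 31 genes (0.193%). Rbm3 is one of these and was chosen with its counts known, so nothing is read from that rank. Among all tested genes the size of its log2 fold change was at percentile 75.6 with siRNA 1 and at percentile 92.1 with siRNA 2.

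Cirbp showed no such order. Cirbp was counted at 29.2, 28.6 and 31.4 CPM in control (230 to 233 reads). It was at 39.2, 31.9, 29.6 and 32.3 CPM with siRNA 1 (224 to 264 reads), and at 31.7, 26.1, 28.6 and 28.9 CPM with siRNA 2 (212 to 234 reads). All 3 groups overlapped, and the highest value was that of siRNA 1 replicate 1. The means were 29.7 ± 1.45 CPM (SD, n = 3), 33.2 ± 4.13 CPM (SD, n = 4) and 28.8 ± 2.27 CPM (SD, n = 4), so neighbours in the order of the groups did not differ beyond their spread. The log2 fold change was 0.16 (SE 0.09, 95% interval −0.01 to 0.33) with siRNA 1 and −0.05 (SE 0.09, −0.22 to 0.13) with siRNA 2, and siRNA 2 stood at −0.20 (SE 0.08, −0.36 to −0.05) from siRNA 1. Without siRNA 1 replicate 1, the value with siRNA 1 was 0.08. Cirbp was not among the genes called with either siRNA. Its interval with siRNA 2 reaches down to −0.22, above the upper end of the interval of Rbm3 with the same siRNA (−0.40). Both genes were chosen with these counts known, so nothing is read from this gap or from the absence of a call for Cirbp.

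**Figure D1:**
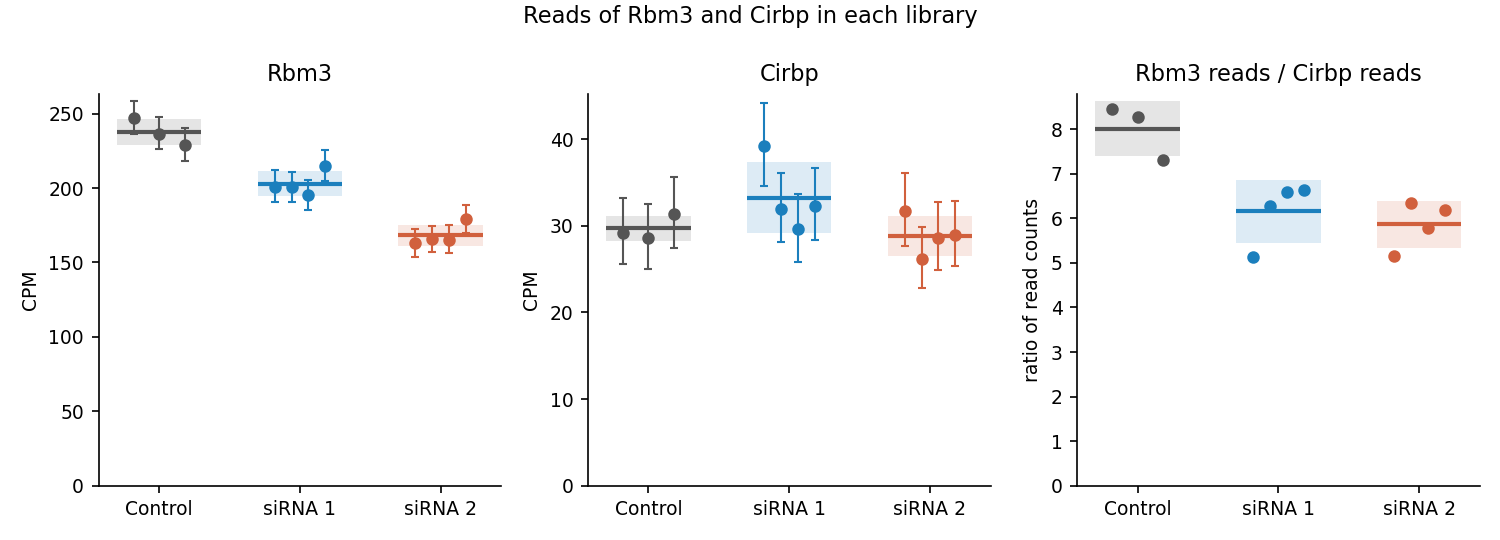
CPM of Rbm3 and of Cirbp, and the ratio of their read counts, in each of the 11 libraries (points; whiskers on the CPM are exact 95% Poisson intervals of the read count, lines and shaded bands are group means and 1 SD). For Rbm3 the control libraries lie between 229.2 and 247.1 CPM, siRNA 1 between 195.3 and 214.8 and siRNA 2 between 163.1 and 178.9, while the Cirbp groups overlap.

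Read depth sets a different limit for each member. The CV between libraries of Rbm3 was 3.78% in control, 4.10% with siRNA 1 and 4.27% with siRNA 2, where counting error alone gives 2.32%, 2.57% and 2.77%. For Cirbp, with fewer reads, counting error alone gives 6.56%, 6.33% and 6.68%, and the CVs were 4.86%, 12.4% and 7.88%. The spread of Cirbp in control and with siRNA 2 was therefore close to that of counting, and the SE of its log2 fold changes (0.09) was larger than that of Rbm3 (0.05).

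Rbm3 was the more abundant of the pair in every library. The ratio of Rbm3 reads to Cirbp reads was 8.46, 8.27 and 7.31 in control. It was 5.13, 6.29, 6.60 and 6.64 with siRNA 1, and 5.15, 6.34, 5.79 and 6.19 with siRNA 2. All control libraries lay above all siRNA libraries in this ratio, and the siRNA groups overlapped each other. The mean ratio was 8.01 ± 0.617 (SD, n = 3) in control, 6.16 ± 0.708 (SD, n = 4) with siRNA 1 and 5.87 ± 0.534 (SD, n = 4) with siRNA 2. Per kilobase of exon, Rbm3 stood at 50.6, 43.2 and 35.8 CPM per kb over the groups in that order, and Cirbp at 11.4, 12.8 and 11.1 CPM per kb. Among the 16073 tested genes Rbm3 ranked 855th, 1037th and 1355th on this scale, and Cirbp 4588th, 4219th and 4788th. The mean ratio per kilobase was thus 4.44 in control and 3.42 and 3.25 with the siRNAs. With the longest coding mRNA of each in place of all exons (2792 nt for Rbm3 and 1321 nt for Cirbp), it was 3.79, 2.92 and 2.78.

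Rbm3 shares little sequence with other genes, and those genes were counted at low levels. Of the 5199 different 75-nt words of its transcripts, 75 nt being the read length, 396 (7.62%) occur in another gene, and none of the 2743 words of Cirbp do. The genes that share words with Rbm3 are Phospho2, the antisense gene Rbm3os, the pseudogene Rbm3-ps, Gm10156, Gm13624 and Gm48583. Rbm3-ps stood at 0.605, 0.300 and 0.190 CPM in control, siRNA 1 and siRNA 2, Gm48583 at 0.304, 0.296 and 0.0597 CPM and Gm10156 at 0.169, 0.0646 and 0.0309 CPM, and Gm13624 had no read. Phospho2, a phosphatase gene, was at 7.36, 10.9 and 9.73 CPM, with log2 fold changes of 0.56 (FDR 0.0194 by edgeR) with siRNA 1 and 0.40 (FDR 0.0939) with siRNA 2. Reads not placed uniquely, 787556 to 974693 a library where listed, stand apart from the gene counts. Low counts of these genes thus do not show how many reads of the shared words were left out. Rbm3os (X, 8145429 to 8147964, plus strand) shares 94 of the exon bases of Rbm3 (2.00%). It was counted with 5, 4 and 2 reads in control, 10, 7, 12 and 6 reads with siRNA 1, and 6, 14, 5 and 7 reads with siRNA 2, which is 0.466, 1.19 and 1.02 CPM on average, and was below the filter of more than 1 CPM in at least 4 libraries. The control libraries thus held 2 to 5 reads and the siRNA libraries 5 to 14, counts that were left untested. The sources used here do not say whether the counting used strand, and without it reads of Rbm3 and Rbm3os in the shared bases cannot be told apart.

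Genes around Rbm3 were compared to see whether the region as a whole was lower. Of the 15 annotated genes within 100 kb of Rbm3, 8 were tested and none was called with either siRNA by the edgeR quasi-likelihood test, by DESeq2 or by edgeR's exactTest. The quasi-likelihood test called 4.67% and 9.72% of all genes. At an unadjusted p under 0.05 there were 4 neighbours with siRNA 1 and 2 with siRNA 2. The share of all genes at this level is not given here, so nothing is read from such counts, here or below. The log2 fold changes of the neighbours lay below 0 for 7 of the 8 with each siRNA, with medians of −0.14 and −0.13 and ranges of −0.39 to 0.18 and −0.30 to 0.10. Porcn, the O-acyltransferase of Wnt proteins, was at −0.28 and −0.22 (FDR 0.124 and 0.179), and Tbc1d25, a Rab GTPase-activating protein, at −0.24 and −0.04 (FDR 0.265 and 0.878). Wdr13, the nearest tested gene on the 3′ side at 6083 bases, was at −0.12 and −0.12 (FDR 0.564 and 0.458). Ebp, a sterol isomerase, was at −0.16 and −0.13, Ftsj1, a tRNA ribose methyltransferase, at −0.10 and −0.12, and the antisense gene Gm14820 at −0.39 and −0.30. Suv39h1, a histone H3 lysine 9 methyltransferase, was at 0.18 and 0.10, and Was, near the detection limit at about 1 CPM, at −0.08 and −0.24. With siRNA 2 the fold change of Rbm3 was below that of each of these neighbours, and with siRNA 1 Gm14820, Tbc1d25 and Porcn lay lower than Rbm3. Since Rbm3 was chosen on its counts, nothing is read from its place among them. The 527 tested genes of the X chromosome had medians of 0.03 and 0.07, and 42.7% and 38.1% of them lay below 0.

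Around Cirbp, 10 of 11 annotated genes were tested, beside shares of 4.67% and 9.72% called among all genes. None was called with siRNA 1 by edgeR's quasi-likelihood test, DESeq2 or exactTest, with 1 gene at an unadjusted p under 0.05. With siRNA 2, Midn, whose protein midnolin carries substrates to the proteasome and whose gene ends 7617 bases upstream of Cirbp, was higher (log2 fold change 0.15, FDR 0.0459 by edgeR's quasi-likelihood test) and was at 0.15 with siRNA 1 as well (FDR 0.0676). The call with siRNA 2 was lost in 8 of 14 alternatives, among them TMM factors and DESeq2. The tumour suppressor kinase Stk11 was at 0.04 and 0.01, Sbno2 at 0.00 and −0.05, Cbarp at −0.05 and −0.19, the ATP synthase subunit Atp5d at −0.04 and −0.05, and 1600002K03Rik, which begins 158 bases past the end of Cirbp, at −0.10 and −0.14. The ephrin Efna2 was at 0.01 and −0.09, Mum1 at 0.02 and −0.10, the complex I subunit Ndufs7 at 0.04 and −0.02 and the RNA-binding protein Dazap1 at 0.01 and −0.07. The medians over the 10 genes were 0.01 and −0.06.

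**Figure D2:**
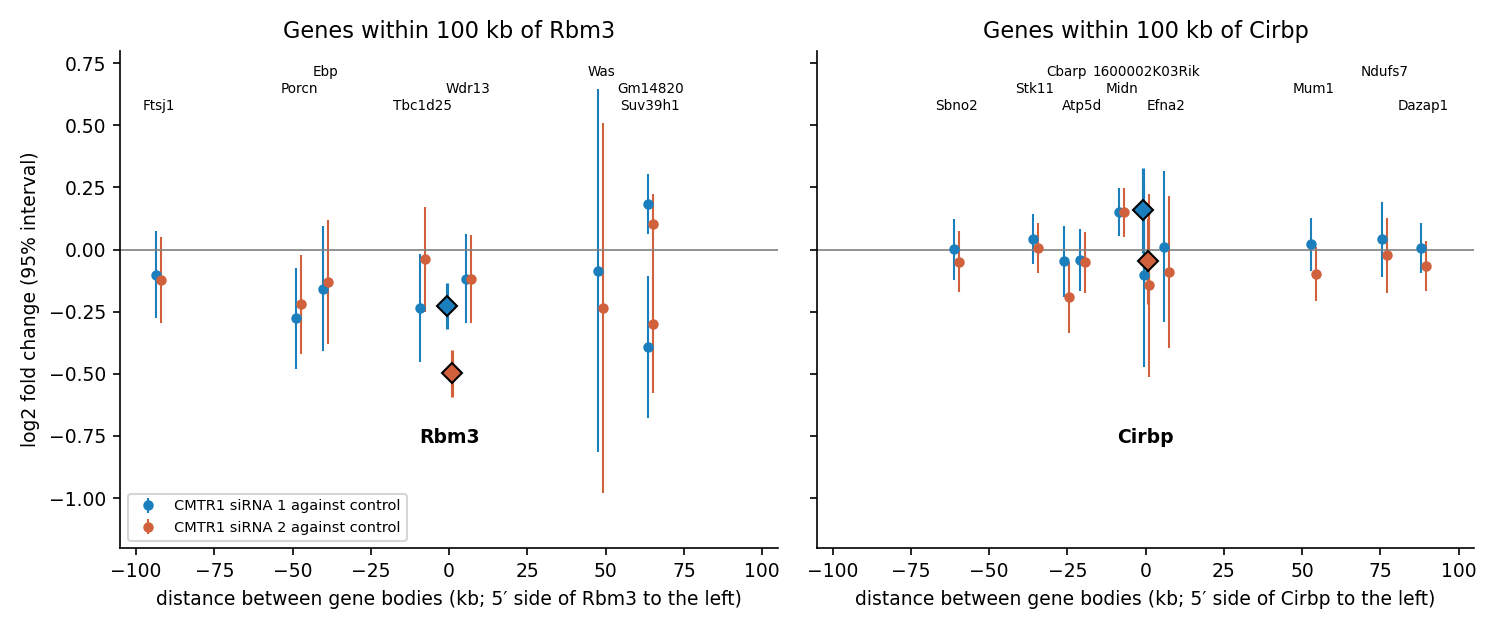
Log2 fold change against control with its 95% interval for the tested genes within 100 kb of Rbm3 and of Cirbp, by distance between gene bodies in kb (circles), with Rbm3 and Cirbp as diamonds at 0. With siRNA 2, Rbm3, which was chosen on its counts, lies at −0.50, and its 8 neighbours range from −0.30 to 0.10.

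The relatives of Rbm3 and Cirbp with a like build did not pass the test. Of 18 proteins with RNA recognition motifs and a glycine-rich region, the hnRNP and FET proteins and their kin, none was called with either siRNA by edgeR's quasi-likelihood test, DESeq2 or exactTest. The first test called 4.67% and 9.72% of all genes, so nothing is read from the absence of calls in a list of this size. At an unadjusted p under 0.05 there was 1 (Hnrnpa3, siRNA 1) and 0. The median log2 fold changes of the 18 were −0.02 and −0.01, against 0.02 and 0.03 for all genes. Their values ran from −0.12 (Hnrnpa3, FDR 0.193) to 0.06 with siRNA 1 and from −0.11 (Rbmx, FDR 0.463) to 0.04 with siRNA 2. The next lowest FDRs were those of Hnrnpab at −0.07 with siRNA 1 (FDR 0.465) and Hnrnpdl at −0.06 with siRNA 2 (FDR 0.505). With both siRNAs Rbm3 was lower than each of these 18 genes in log2 fold change. Rbm3 was chosen with its counts known, so nothing is read from that order.

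The proteins with a cold shock domain carry a fold unrelated to that of Rbm3 and Cirbp. None of the 8 was called by edgeR's quasi-likelihood test, DESeq2 or exactTest, against 4.67% and 9.72% of all genes by the first. At an unadjusted p under 0.05 there were 0 and 3 genes, and the list medians were −0.01 and 0.08. Lin28a, the repressor of let-7 maturation, was at −0.08 with siRNA 1 (FDR 0.359) and 0.07 with siRNA 2, and Ybx3 at −0.07 (FDR 0.455) and 0.07. With siRNA 2 the lowest FDR was that of Lin28b at 0.15 (FDR 0.100). None of the 3 genes under 0.05 with siRNA 2 lay below control.

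The SR-protein kinases of the Clk and Srpk families change splicing with body temperature, and splicing with a poison exon is a known control of Rbm3. Of 7 kinases listed, 6 were tested, beside shares of 4.67% and 9.72% called among all genes. None was called with siRNA 1 by edgeR's quasi-likelihood test, DESeq2 or exactTest, with 1 at an unadjusted p under 0.05. With siRNA 2, Srpk2 was lower (76.0 ± 4.04 CPM in control, SD, n = 3, and 64.9 ± 6.58 CPM, SD, n = 4; log2 fold change −0.23, FDR 0.0198 by edgeR). It was at −0.17 with siRNA 1 (FDR 0.140), and the call was lost without control replicate 1 or 2 or siRNA 2 replicate 1 or 2. Clk3, the highest of the 6, was at 0.14 and 0.18 (FDR 0.336 and 0.118).

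Genes known to act on the pair, and mRNAs known to be bound by the pair, were tested as a list of 11, which was written with earlier results of these data known. With each siRNA 1 of the 11 was called (9.09%, against 4.67% and 9.72% of all genes), Yap1 with siRNA 1 and Hif1a with siRNA 2, and nothing is read from this count. Yap1, the Hippo pathway coactivator whose mRNA Rbm3 is known to stabilise, was at 206.8, 214.4 and 205.3 CPM in control, 174.4, 178.5, 179.5 and 189.5 CPM with siRNA 1 and 213.5, 213.3, 199.0 and 206.8 CPM with siRNA 2. It was lower with siRNA 1 (log2 fold change −0.21, SE 0.05, FDR 0.00377 by edgeR), with all libraries below control as for 6.23% of genes, and at 0.00 with siRNA 2 (FDR 0.969). The call was lost without control replicate 2. Hif1a, the hypoxia-inducible transcription factor, was at 132.6, 143.7 and 140.5 CPM in control, 114.3, 129.1, 136.3 and 129.1 CPM with siRNA 1 and 162.1, 158.2, 139.8 and 171.4 CPM with siRNA 2. It was higher with siRNA 2 (log2 fold change 0.19, SE 0.06, FDR 0.0336 by edgeR), and this call was lost in 9 of 14 alternatives, TMM factors and DESeq2 included.

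The other 9 were not called with either siRNA. Hsf1, the heat shock transcription factor, was at 0.12 and 0.04 (FDR 0.278 and 0.771). Sp1, the factor of the element printed above for Cirbp, was at 411 ± 4.83 CPM in control (SD, n = 3), with log2 fold changes of −0.03 and −0.07 (FDR 0.751 and 0.330). Hnrnph1, a splicing factor of the poison exon of Rbm3, was at −0.03 and −0.03. Ntrk2, the receptor of brain-derived neurotrophic factor, was at 0.14 and 0.13 at about 4 CPM, and Rtn3, a reticulon whose mRNA Rbm3 binds, at −0.02 and 0.09. The Cirbp targets thioredoxin (Txn1) and replication protein A (Rpa2) were at 0.00 and 0.03 and at 0.02 and 0.11, the checkpoint kinase Atr at 0.00 and −0.07, and Clock at 0.08 and 0.03.

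**Figure D3:**
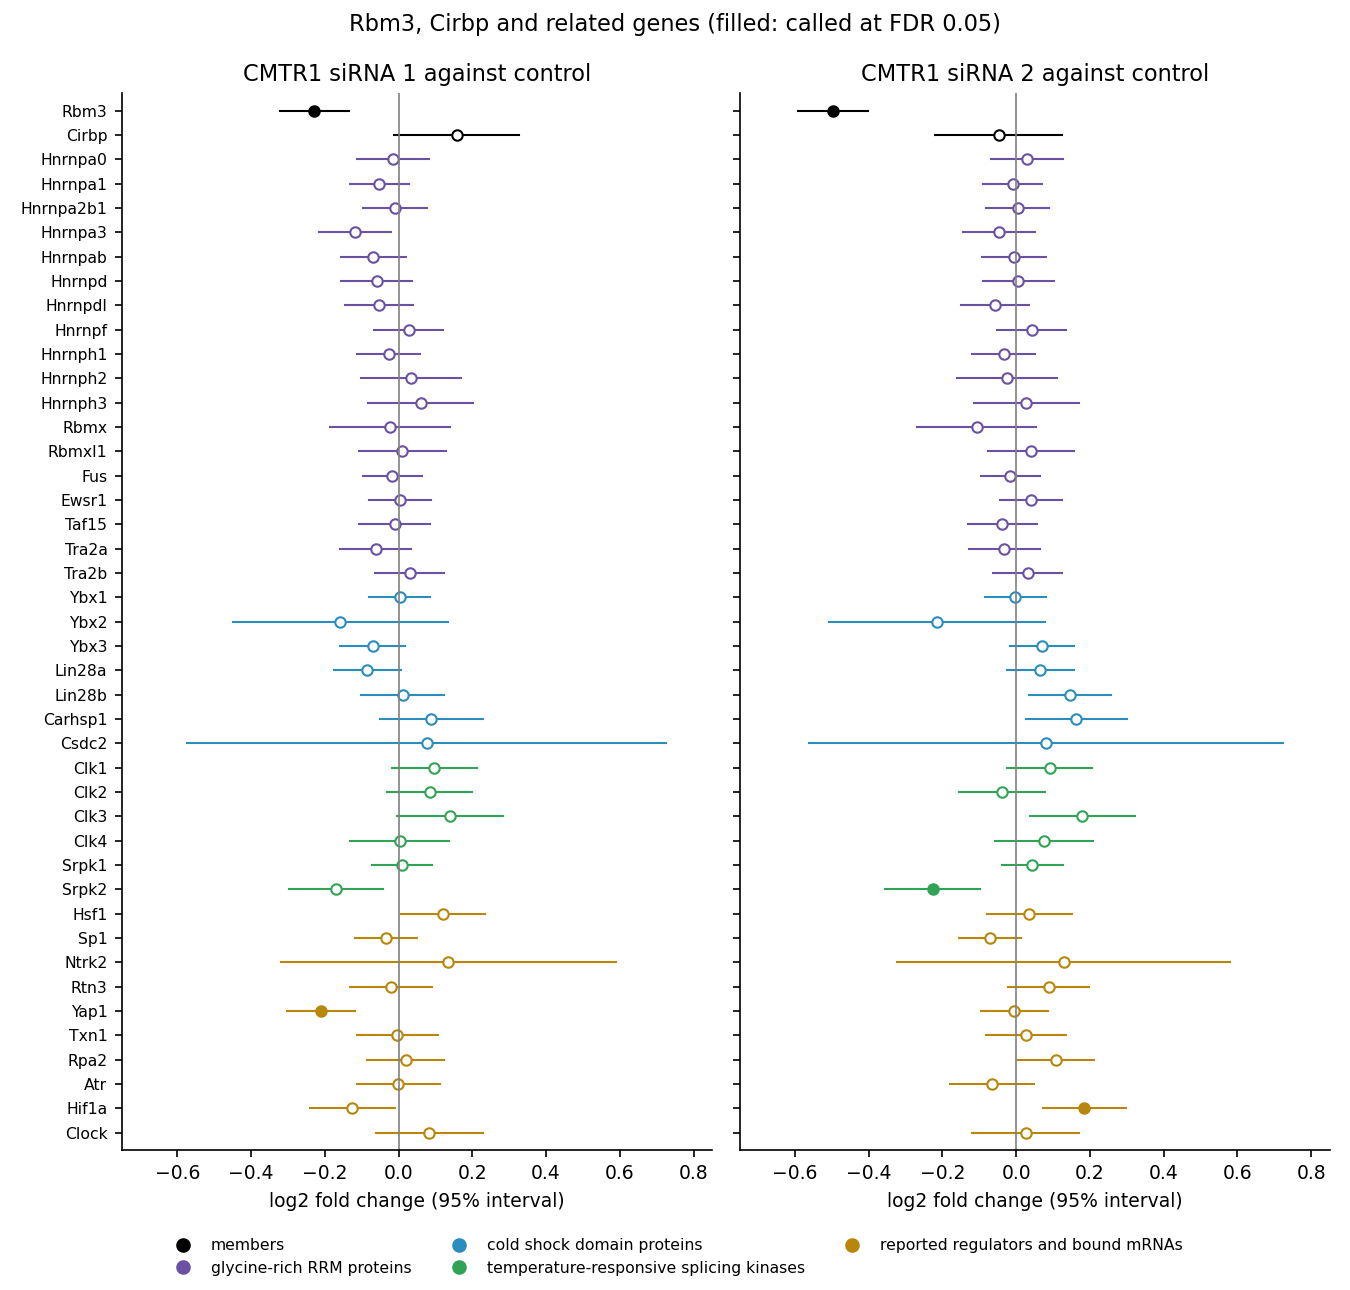
Log2 fold change against control with its 95% interval for Rbm3 and Cirbp (black) and for the tested relatives with a glycine-rich region, 7 of the 8 cold shock domain proteins, the splicing kinases and the reported regulators and bound mRNAs, with filled circles for genes called at an FDR of at most 0.05 and Hnrnph1 drawn once. Rbm3, which was chosen on its counts in these groups, lies at −0.23 with siRNA 1 and −0.50 with siRNA 2, lower than all others shown. Cirbp was chosen likewise, so nothing is read from the fill of either gene.

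In the circadian clock, where Cirbp acts on Clock mRNA, 20 of 23 listed genes were tested. One was called lower with siRNA 1 and 3 were called lower with siRNA 2, and none was called higher. Of all tested genes 1.97% and 3.55% were called lower. The list medians were −0.11 and −0.14, against 0.02 and 0.03 for all genes. Cry2, a repressor of the Clock:Bmal1 dimer, was the gene called with both siRNAs. It was at 49.1, 49.6 and 48.6 CPM in control, 41.3, 44.2, 38.8 and 40.2 CPM with siRNA 1 and 40.9, 38.3, 41.7 and 40.1 CPM with siRNA 2, so that both siRNA groups lay below control and overlapped each other. All libraries lay below control for 6.23% of genes with siRNA 1 and for 6.99% with siRNA 2. The log2 fold changes of Cry2 were −0.25 (SE 0.07, FDR 0.0187 by edgeR) and −0.29 (SE 0.07, FDR 0.00365). The call with siRNA 1 was lost when control replicate 1, 2 or 3 or siRNA 1 replicate 3 or 4 was left out. Cry1, the paralogous repressor, was at −0.17 (FDR 0.132) and −0.25 (FDR 0.00896), with the second lost without control replicate 2. Tef, a PAR bZIP output factor, was at −0.13 (FDR 0.387) and −0.24 (FDR 0.0347), with the second lost in 6 of 14 alternatives. The 2 siRNA comparisons share the control libraries.

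Of 19 core stress granule proteins, a compartment that Cirbp enters under stress, 2 were called lower with siRNA 1, namely the poly(A)-binding protein Pabpc4 (−0.19, FDR 0.00717 by edgeR) and the granule scaffold G3bp2 (−0.19, FDR 0.00921). With siRNA 2, 3 were called, Pabpc1 lower (−0.15, FDR 0.00850), the decapping activator Ddx6 lower (−0.15, FDR 0.0388) and the fragile X protein gene Fmr1 higher (0.25, FDR 0.00274). Pabpc4, G3bp2 and Pabpc1 lost their calls without control replicate 2, G3bp2 also without control replicate 1 or siRNA 1 replicate 1, and Ddx6 without control replicate 1 or 2 or siRNA 2 replicate 2 or 3. The called shares were 10.53% and 15.79%, against 4.67% and 9.72% of all genes, and with siRNA 2 TMM factors and DESeq2 each called 5 genes instead of 3. Pabpc1 was at −0.12 with siRNA 1 (FDR 0.0815), where TMM factors and DESeq2 called it, and neither Pabpc1 nor Pabpc4 was called between siRNA 2 and siRNA 1 (log2 difference −0.04, FDR 0.630, and 0.09, FDR 0.209). The list medians were −0.03 and −0.02.

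Heat shock genes respond to temperature in the direction opposite to Rbm3 and Cirbp. Of 20 tested, 1 was called with each siRNA (5.00%, against 4.67% and 9.72% of all genes), a share no larger than the background with siRNA 2 and near it with siRNA 1. It was Serpinh1, the collagen chaperone Hsp47, both times. Serpinh1 was at 102.2, 91.4 and 100.1 CPM in control, 139.2, 138.5, 114.2 and 112.0 CPM with siRNA 1 and 127.0, 122.6, 104.6 and 105.9 CPM with siRNA 2. Every siRNA library lay above every control library, but the share of all genes with that order is not given here and nothing is read from it. Its log2 fold changes were 0.36 (SE 0.07, FDR 0.000638 by edgeR) and 0.23 (SE 0.07, FDR 0.0264), and the second was lost with TMM factors, DESeq2 and without control replicate 2 or 3 or siRNA 2 replicate 1 or 2. Of the fibroblast markers, Col1a1 (0.75, FDR 6.42e-05 by edgeR) and Dcn (1.13, FDR 0.00209) were higher with siRNA 2, Col3a1 was lower (−1.42, FDR 0.0180, at 1.58 CPM in control), and none was called with siRNA 1. The part of such markers in the level of Serpinh1 was not tested. The other 19 heat shock genes did not pass edgeR's quasi-likelihood test, and the list medians were −0.06 and 0.03. DESeq2 called 2 genes of the list with each siRNA, among them the chaperone gene Hsp90ab1, which lay at −0.11 and −0.09 by edgeR (FDR 0.122 and 0.141). The mitochondrial co-chaperonin gene Hspe1 was at −0.15 and −0.14 (FDR 0.0917 and 0.0652) and was called with siRNA 2 with TMM factors and by DESeq2.

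Genes were ranked by how closely their pattern over the 11 libraries followed that of Rbm3 or of Cirbp. Pearson's r of log2 CPM was computed between each member and 7984 other genes of ample expression (mean log2 CPM of at least 4). Genes whose symbols start with Gm and a digit or end in Rik were left out. The libraries, their depths and the group means are shared sources of such an r. For Cirbp against Rbm3, r was 0.19 over all libraries, at percentile 68.3 of the genes compared, and −0.06 within groups. The genes most like Rbm3 were Wsb2, a SOCS-box protein (r = 0.97), the ribosomal protein gene Rps27 (0.96), Jade1, a subunit of a histone acetyltransferase complex (0.94), the nuclear import receptor Kpna1 (0.92) and the histone chaperone Anp32b (0.92). Wsb2 was at 104.9, 97.3 and 100.7 CPM in control, 84.4, 89.6, 82.9 and 86.5 CPM with siRNA 1 and 67.1, 74.0, 69.2 and 71.6 CPM with siRNA 2, in the same order of groups as Rbm3 and with no overlap, as for 0.193% of genes. Its log2 fold changes were −0.23 and −0.52, beside −0.23 and −0.50 for Rbm3, and those of Anp32b were −0.17 and −0.44. The others moved less, with Kpna1 at −0.18 and −0.32, Rps27 at −0.09 and −0.20 and Jade1 at −0.08 and −0.18. The genes named were picked as the highest r of 7984, so their likeness to Rbm3 follows from the choice. Within groups the correlations with Rbm3 were 0.43 for Wsb2, 0.55 for Rps27, 0.39 for Jade1, 0.69 for Kpna1 and 0.27 for Anp32b, so much of the likeness is in the group means. The genes most opposite were the transporter Slco5a1 (r = −0.98), the zinc finger gene Repin1 (−0.95) and the angiopoietin receptor Tek (−0.95). Slco5a1 was at 14.6, 13.6 and 15.8 CPM in control, 20.2, 18.5, 20.1 and 17.9 CPM with siRNA 1 and 27.8, 24.6, 29.1 and 24.0 CPM with siRNA 2.

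The genes most like Cirbp were picked in the same way. Cep131 (r = 0.88), a centriolar satellite protein, Fbxl20 (0.87), an F-box protein, Edc4 (0.85), an mRNA decapping scaffold, Drap1 (0.84), a transcriptional corepressor subunit, and Zfp760 (0.83) led, and Add1 (−0.93), Ttl (−0.92) and Tpgs2 (−0.91) were most opposite. None of these 8 was called with either siRNA by edgeR's quasi-likelihood test, against 4.67% and 9.72% of all genes. Within groups their correlations with Cirbp had sizes of 0.75 to 0.89. Replicate 1 of siRNA 1, the library with the highest Cirbp, was also the highest of its group for Cep131 at 31.2 CPM, beside 27.0, 26.2 and 30.2 CPM.

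**Figure D4:**
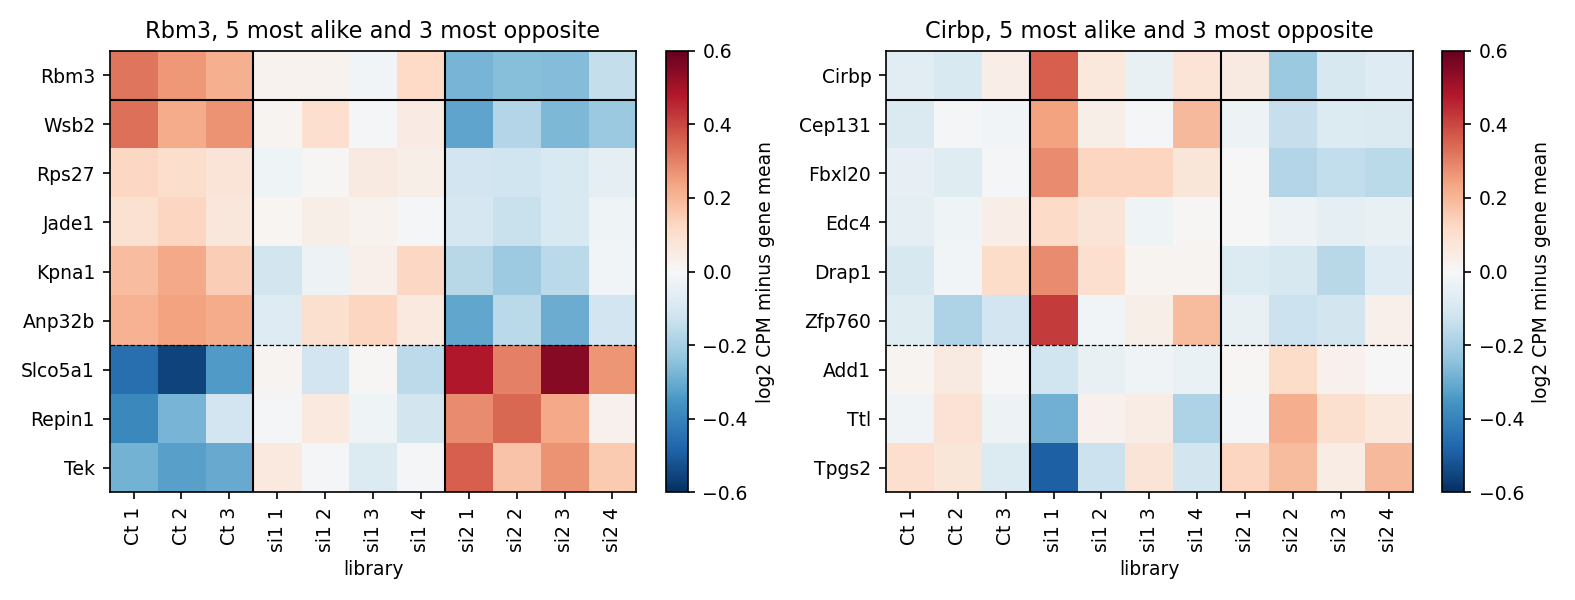
Log2 CPM minus the gene's mean over the 11 libraries (colour) for Rbm3 and for Cirbp, each with the 5 genes most like it and the 3 most opposite, by library (Ct, control; si1 and si2, the CMTR1 siRNAs). Picked by r over these same libraries, the Rbm3 set changes by group, with Wsb2 at r = 0.97, while the Cirbp set follows siRNA 1 replicate 1, at 39.2 CPM of Cirbp.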

How the data were processed

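The authors deposited counts of reads per Ensembl gene for 11 RNA-seq libraries. Per the study's methods and the labels, Cutadapt trimmed the reads, STAR placed them on GRCm38, Picard removed duplicates and featureCounts made the gene counts; its strand setting is not given in the sources used here. The summary lines at the end of 10 files were left out. Their layout is that of HTSeq-count, which the methods do not name, so the tool behind these files is unsure. They list ambiguous reads equal to 1.91% to 2.02% of reads in genes. Reads in no gene made up 39.3% to 44.3% of all reads listed, those not placed uniquely included. Of 54838 genes, 54809 are in the GENCODE M21 annotation (GRCm38) used for names, exons and neighbours.

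CPM is the count per 1000000 counts in genes. Genes above 1 CPM in at least 4 libraries (16073) were tested with edgeR 4.0.16 (R 4.3.3, quasi-likelihood, all 3 groups in 1 model, libraries scaled by total counts), with Benjamini-Hochberg FDRs over all of them and calls at 0.05. Intervals are the estimate ± 1.96 SE. A log2 CPM used a prior count of 1. The code was tested on simulated counts. Motifs, 75-nt words, alignments and tables were made in Python 3.11.15 (pandas 2.3.3, Biopython 1.88).

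The members, gene lists and tests were chosen with earlier results of these data known. Named genes are the members, tested genes within 100 kb, the 5 most and 3 least correlated with each member, every tested reported regulator or bound mRNA, Cmtr1, and of each list the genes called with both siRNAs in 1 direction or else the 2 of lowest FDR with each siRNA; further called genes of a list were named after their values were seen. The values of 1 gene that this rule names are not reported here. Alternatives were TMM factors, DESeq2 1.42.0, exactTest, other filters, 2 groups alone, replicate number as a block and each library left out. Same-numbered libraries of different groups deviated together no more than others (mean r 0.01 over 10 pairs), so the numbers were not taken as pairs. Other groupings of the libraries, such as batches, were not tested.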

Additional observations from a re-analysis of the deposited data

Results flagged for a closer look

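Among the siRNA 2 libraries, replicate 4 stood apart for Rbm3 at 178.9 CPM, the other 3 lying between 163.1 and 165.7 CPM, by Dixon's test at the 95% level. This test was made on 6 groups, of which chance marks about 1 in 20. The pair was chosen on these counts, so nothing is read from the mark. Replicate 4 still lay below every library of siRNA 1. Without it the log2 fold change of Rbm3 with siRNA 2 was −0.53.

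Some genes of the lists differed between the siRNAs by a direct comparison of siRNA 2 with siRNA 1 in the edgeR quasi-likelihood fit. This comparison called 7.44% of all tested genes. The share called of the listed genes is not given here, so nothing is read from their number. The log2 difference (siRNA 2 minus siRNA 1) was 0.31 for Hif1a (FDR 0.000128), 0.24 for the Hsp90 co-chaperone Chordc1 (FDR 0.00381), 0.21 for Yap1 (FDR 0.00162) and 0.17 for Fmr1 (FDR 0.0318). It was 0.16 for G3bp2 (FDR 0.0143), 0.15 for Lin28a (FDR 0.0229), 0.14 for Ybx3 (FDR 0.0296) and −0.14 for Ddx6 (FDR 0.0381). For Rbm3 itself the same difference was −0.27.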

How the results depend on the processing

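The log2 fold changes of Rbm3 and Cirbp kept their direction under all alternatives run. Leaving out each library in turn, Rbm3 ranged from −0.26 to −0.20 with siRNA 1 and from −0.53 to −0.47 with siRNA 2, and Cirbp from 0.08 to 0.21 and from −0.09 to 0.00. The other settings gave −0.26 to −0.23 and −0.53 to −0.50 for Rbm3, and 0.14 to 0.16 and −0.08 to −0.04 for Cirbp. With replicate number as a block, Rbm3 was at −0.26 and −0.53, Cirbp at 0.16 and −0.04, and 840 and 1486 genes were called, against 751 and 1562. Counts of called genes ranged from 355 to 852 with siRNA 1 when 1 library was left out (355 without control replicate 2, 450 without control replicate 3, 425 without siRNA 1 replicate 2) and from 807 to 1658 with siRNA 2 (916 and 807 without control replicates 2 and 3, 1007 without siRNA 2 replicate 1). DESeq2 called 958 genes with siRNA 2; the cause of these shifts was not tested. The split into lower and higher calls depended on scaling, with 316 and 435 genes for siRNA 1 and 571 and 991 for siRNA 2 by total counts, 400 and 346 and 734 and 728 with TMM factors, and 322 and 199 and 549 and 409 with DESeq2. Depth limits Cirbp, counted with 212 to 264 reads a library, more than Rbm3 with 1148 to 1946.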
